A study of Mus musculus with 8 samples.

Results

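The transcriptome of wild-type mouse primordial germ cells (PGCs) caught during migration is described here by level: which transcripts gave the highest signal, which gave none above a low-signal reference, and which differed most between embryos. It rests on the 4 WT arrays of a series of 8, each from the PGCs of 1 embryo at embryonic day 9.5, and on 19938 genes with at least 1 probe that names a single gene. The WT embryos were Ror2+/+, of mixed strain, and had 25, 25, 22 and 21 somites, in the order WT 1 to WT 4. The other 4 arrays held PGCs of embryos homozygous for Ror2 Y324C, a missense allele of a receptor tyrosine kinase, and are used only as a further look at the rank and the spread of the same genes. All embryos came from heterozygous Ror2Y324C/+ mothers and fathers that were heterozygous too and homozygous for Oct4-ΔPE, a transgene in which Oct4 (Pou5f1) regulatory sequence drives GFP in germ cells. GFP-positive cells were sorted from the trypsin-digested posterior of each embryo, so the cells measured are those in which that transgene was active, and a Pou5f1 signal is not independent of the sort.

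PGCs are the embryonic precursors of eggs and sperm. They arise at the base of the allantois under BMP signals, where Prdm1, Prdm14 and Tfap2c set them apart from their somatic neighbours, then move through the hindgut toward the genital ridges, guided by Kit ligand and Cxcl12. On the way they keep a pluripotency network, divide, and lose much of their DNA methylation, while the genes of meiosis and gametogenesis stay closed until the gonad is reached.

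Each value is a log2 level of 1 probe as the authors deposited it, and each gene is given by its probe of highest WT mean. A rank orders probe signals. Probes respond differently and the signals are not per length, so no fold is given between genes and a rank is not an order of transcript numbers. Because no scanner background was used, a low-signal reference was taken on each array as the 95th percentile over 1203 olfactory, vomeronasal and trace amine receptor genes, a class read chiefly by sensory neurons. That reference lay at 5.06, 5.36, 5.51 and 5.38 in WT 1 to WT 4. A gene is called above or below it where the limma test of the difference over the 4 embryos had a Benjamini-Hochberg adjusted p under 0.05 over all 19938 genes. The receptors define the line, so their own levels are no result.

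The pairwise Pearson correlation between WT arrays over all genes ran from 0.964 to 0.977, a description of arrays that share their probes. It was highest between WT 1 and WT 2, the 25-somite embryos, and lowest between WT 1 and WT 3. The median probe lay between 5.39 and 5.58. The SD across genes was smallest in WT 3, at 1.77, and largest in WT 1, at 1.95, so WT 3 had the narrowest spread of levels and the highest reference. This shows across the lists and families described here, which partly overlap. Of the 33 whose median gene was under that of all genes, 25 had their highest mean in WT 3, and of the 17 whose median gene was over 8, 15 had their lowest mean there. In bulk samples such as these, fewer cells of a type and less RNA per cell cannot be told apart.

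Of the 19938 genes, 9753 (48.9%) were above the reference and 6706 (33.6%) below it, and 3479 (17.4%) were not separated from it. A stricter line, more than 1 above the reference on the log2 scale by limma's treat test, was passed by 5701 genes (28.6%). The median gene had a log2 level of 5.63, and the middle of the distribution was crowded: 8996 genes lay between 4 and 6, 5467 between 6 and 8, 2375 between 8 and 10, 400 between 10 and 12 and 61 at 12 or more. Agreement between embryos was closest at the top and loosest in the middle of the range. The median SD over the 4 embryos was 0.071 for the 61 genes at 12 or more, 0.163 between 10 and 12, 0.275 between 8 and 10 and 0.306 between 6 and 8, then 0.23 between 4 and 6 and 0.197 under 4.

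**Figure D1:**
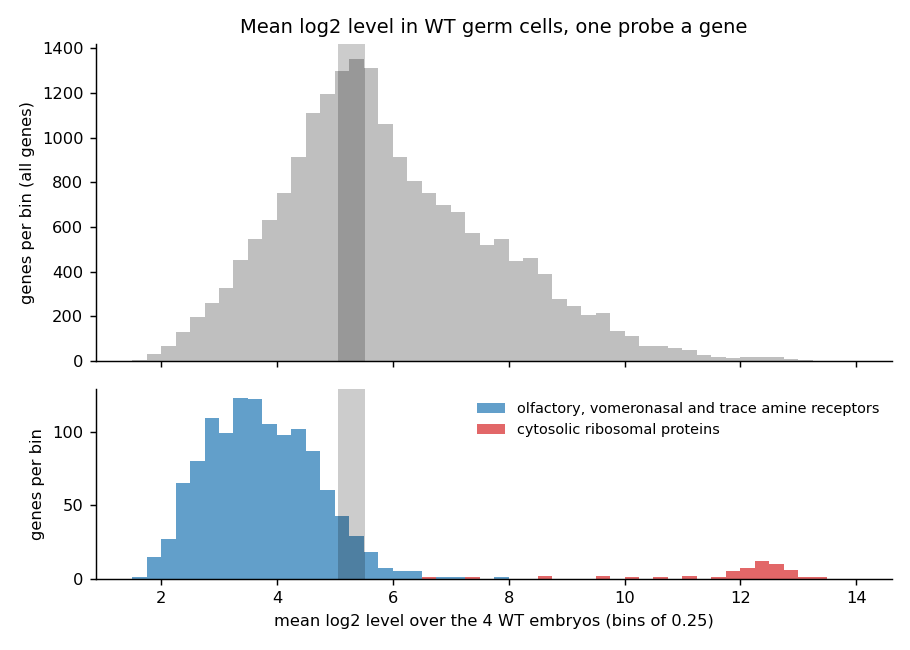
Number of genes per bin of 0.25 by mean log2 level over the 4 WT embryos, for all 19938 genes (top) and for the receptor reference and the cytosolic ribosomal proteins (bottom). The receptor genes pile up around their median of 3.68 and the 53 ribosomal protein genes around their median of 12.34, at opposite ends of the range.

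The top of the list was the machinery of protein synthesis. Of the 20 genes of highest WT mean, 14 encode cytosolic ribosomal proteins, and so do 43 of the highest 100. Rplp1, a protein of the ribosomal stalk, had log2 levels of 13.28, 13.38, 13.44 and 13.37, and Rps29 had 13.19, 13.15, 13.11 and 13.14. Eef1a1, the elongation factor that brings aminoacyl-tRNA to the ribosome, was at 13.23, 13.25, 13.28 and 13.19. In each of the 3 genes the embryos lay within 0.2 of each other. All 53 ribosomal protein genes measured were above the reference, against 48.9% of all genes. The 53 did not share 1 level: Rpl12 was at 6.66 ± 0.25 (SD, n = 4) and Rplp2 at 7.50 ± 0.30 by their best probes.

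The others in the highest 20 were Rn7sk at 12.84 ± 0.14 (SD, n = 4 here and for every mean of WT embryos below), the RNA that holds the transcription elongation factor P-TEFb inactive, Tmsb10 at 12.74 ± 0.08, an actin-monomer binding peptide, Mif at 12.72 ± 0.07, a cytokine, Actb at 12.71 ± 0.04, cytoplasmic actin, and Baiap2l1, which ranked first. Baiap2l1, a membrane-bending adaptor of the actin cytoskeleton, had 13.69, 13.61, 13.55 and 13.62 by that probe, while its other 2 probes had WT means of 11.48 and 5.06. The first rank is therefore the rank of 1 probe and not of a gene on which the probes agree. Of the 20 highest genes in WT, 19 were also among the 20 highest in the mutant embryos, and of the highest 100, 96 were. In every single WT embryo, 83 of the 100 kept a place among its own highest 100.

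Germ cell identity genes stood far up the list. Of 27 measured genes of germ cell specification and identity, 25 were above the reference, 23 of them by more than 1. The shares over all genes were 48.9% and 28.6%. The median member stood at the 90.6th percentile of all genes. The 4 markers that the label of these cells was checked against were all high. Dppa3 (stella) had log2 levels of 11.57, 11.33, 11.07 and 11.13 and ranked 113 among all genes. Pou5f1 had 11.32, 11.09, 10.91 and 11.22 and ranked 142. Kit, the receptor of Kit ligand, had 10.43, 10.41, 10.28 and 10.65 and ranked 298, and Alpl, the alkaline phosphatase long used to stain PGCs, had 10.16, 10.26, 9.83 and 10.28 and ranked 408. All 4 markers were above the reference and had their lowest value in WT 3, as most sets of high level did.

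Higher still were the interferon-induced membrane proteins Ifitm1 (fragilis2) and Ifitm3 (fragilis), surface proteins first noted on nascent PGCs, at 12.49 ± 0.06 and 12.45 ± 0.05. They ranked 28 and 32, among the ribosomal proteins, and Ifitm3 had 12.47, 12.44, 12.49 and 12.38 in the 4 embryos. Rhox9, an X-linked homeobox gene, reached 11.29 ± 0.32 and its neighbour in the family Rhox6 10.61 ± 0.31. The Rhox family was split: 3 of its 8 measured genes were above the reference and 5 below, with Rhox12 at 3.39 ± 0.29 and Rhox10 at 3.25 ± 0.12.

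The transcription factors that specify PGCs and the factors of their survival were above the reference too; these 5 were picked for their known roles after their values were seen. Tfap2c had a log2 level of 9.82 ± 0.13 and Prdm1 (Blimp1), a repressor of somatic genes, 9.38 ± 0.33, with 9.47, 9.63, 8.90 and 9.52 in the embryos. Prdm14 had 7.77, 8.38, 7.55 and 8.16. The RNA-binding survival factors Nanos3 and Dnd1 had 7.76, 8.58, 8.81 and 8.22, and 8.62, 7.65, 7.75 and 9.13. Dnd1 and Nanos3 thus varied by more than 1 between embryos, in different embryos. All 5 were above the reference (limma adjusted p between 1.3e-06 and 0.00011).

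The 2 members of the list below the reference were Kitl, the Kit ligand, at 4.63 ± 0.07, which somatic cells along the path are known to make, and Fut4, a fucosyltransferase, at 4.19 ± 0.33. Kitl had 4.54, 4.63, 4.64 and 4.70, so receptor and ligand lay on opposite sides of the reference in all 4 embryos. A signal below the reference does not show that a transcript is missing. With the median of the receptors as the line in place of their 95th percentile, Kitl and Fut4 were called above, as were Otx2, Dnmt3l, Dazl, Ror1, Cdh2, S1pr1, Bmp2 and Apobec1 of the groups described next.

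**Figure D2:**
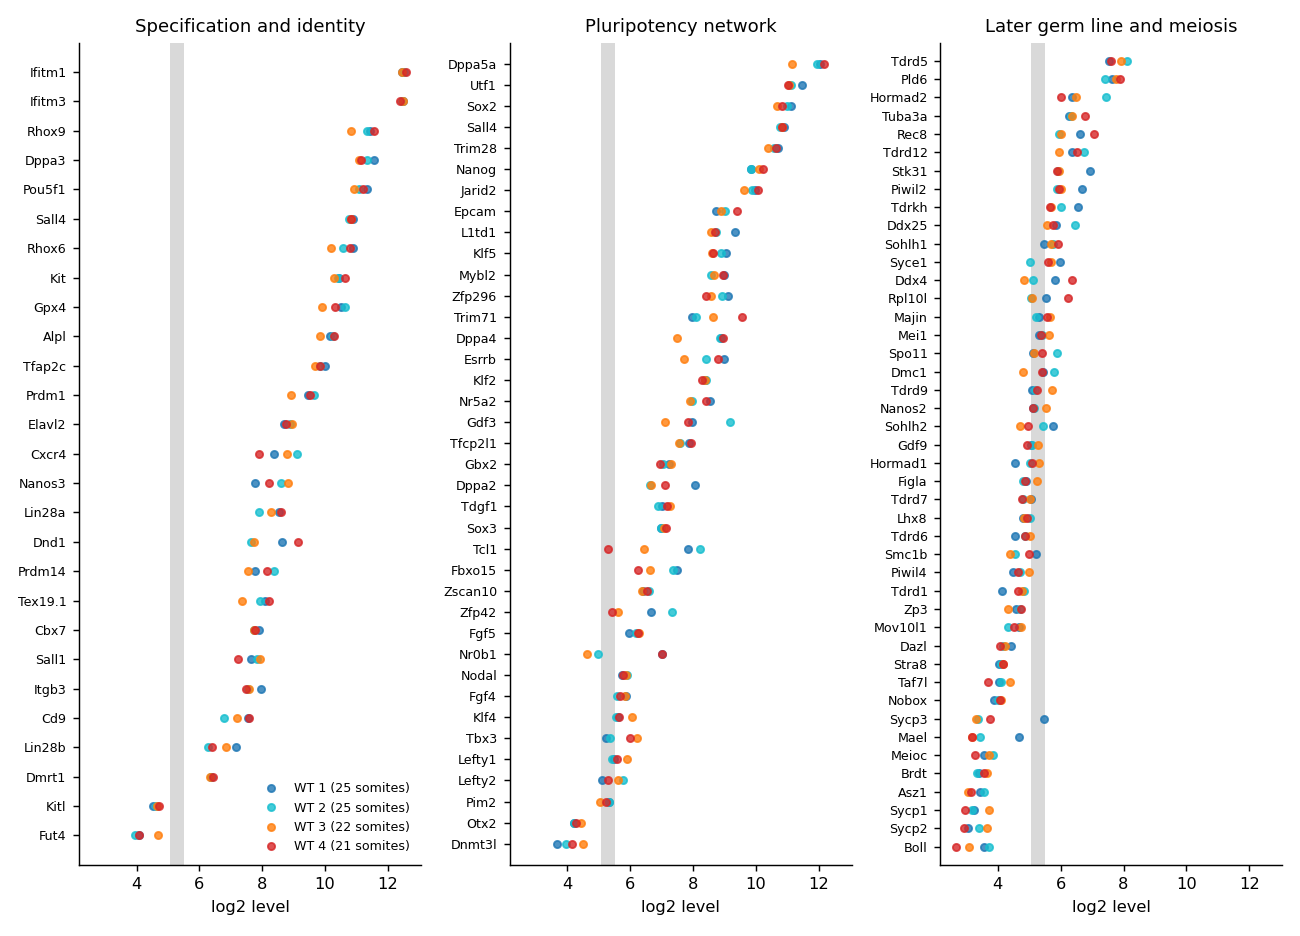
Log2 level of each gene in each of the 4 WT embryos (points, coloured by embryo), for genes of germ cell identity, the pluripotency network and the later germ line, with the grey band marking the receptor reference over the 4 arrays, 5.06 to 5.51. Most identity genes lie to the right of the band, and most genes of the later germ line lie on it or to its left.

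Of 38 pluripotency genes, 31 were above the reference, 2 below and 5 not separated, against 48.9% above over all genes. Dppa5a, an RNA-binding protein of pluripotent cells, led with 12.04, 11.96, 11.14 and 12.17, followed by Utf1 at 11.18 ± 0.21 and Sox2, the partner of Oct4 on DNA, at 10.90 ± 0.19. Nanog, picked after its values were seen, had 9.84, 9.86, 10.12 and 10.23. Lowest were Otx2 at 4.29 ± 0.11, a factor of the primed epiblast that is known to block entry to the germ line, and Dnmt3l, the cofactor of de novo methylation, at 4.08 ± 0.35. Both were below the reference.

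Several members of lower level differed between embryos. Tcl1, an Akt coactivator, had log2 levels of 7.84, 8.22, 6.46 and 5.31, above the reference only while both 25-somite embryos are in the fit: without WT 1 or without WT 2 the call is lost. Zfp42 (Rex1), with 6.67, 7.34, 5.62 and 5.42, lost its call in the same way. Klf4, at 5.72 ± 0.22, lost it without WT 3 and was below with the 99th percentile of the receptors as reference. Nr0b1 had 7.02, 4.98, 4.64 and 7.02 and was not separated. By contrast Sall4, a zinc finger factor of the network, had 10.90, 10.77, 10.82 and 10.83. These 5 genes were chosen after their values were seen, other than Tcl1, one of the 20 most variable.

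Genes of the later germ line were mostly at or below the reference. Of 44 measured genes of meiosis, piRNA production and oocyte or sperm development, 11 (25%) were above, 11 not separated and 22 below. Among all genes, 48.9% were above and 33.6% below. Of the 44, 2 were above by more than 1, against 28.6% of all genes. Those 2 were Tdrd5, a Tudor protein of the piRNA pathway, with 7.54, 8.10, 7.91 and 7.60, and Pld6, the mitochondrial nuclease that starts piRNA maturation, with 7.64, 7.40, 7.76 and 7.90. Hormad2, a meiotic chromosome axis protein, was above at 6.58 ± 0.61. At the other end stood Boll, an RNA-binding protein of meiosis, at 3.55, 3.73, 3.09 and 2.66, and Sycp2, a protein of the synaptonemal complex axis, at 3.26 ± 0.33. Dazl, which licenses germ cells for gamete fate, was below at 4.22 ± 0.15, and Ddx4 (Vasa), with 5.82, 5.13, 4.84 and 6.37, was not separated; both were singled out after their values were seen.

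Promoter sequence differed by level class, a property that the levels did not use. RefSeq promoter windows of 300 bases (250 before to 50 after the annotated start, GRCm38.p6) were matched for 15563 genes. The ratio of observed to expected CG dinucleotides was 0.6 or more in 75.5% of the 7824 windows of genes above the reference, 45.7% of those not separated, and 25% of those below (receptors left out), against 52.4% of all windows. It rose to 88.8% in the highest 5 percent of genes. The GC box letters GGGCGG (either strand) were in 65.9%, 50.6% and 30.6% of the same 3 classes and in 49.9% of all windows. The TATA letters TATAAA (either strand) ran the other way, with 6.79%, 9.57% and 17% against 12.1% of all windows. A match is only a run of letters.

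The windows below are examples given from the highest level to the lowest, with every CG in capitals. They are in the order Eef1a1, Pou5f1, Kit, Boll and an olfactory receptor gene of the reference set. That receptor gene is the one of lowest level whose window holds any CG. They lie at chr9:78481675-78481974 on the minus strand, chr17:35505782-35506081 on the plus strand, chr5:75574737-75575036 on the plus strand, chr1:55363704-55364003 on the minus strand and chr2:86228920-86229219 on the minus strand.
Eef1a1: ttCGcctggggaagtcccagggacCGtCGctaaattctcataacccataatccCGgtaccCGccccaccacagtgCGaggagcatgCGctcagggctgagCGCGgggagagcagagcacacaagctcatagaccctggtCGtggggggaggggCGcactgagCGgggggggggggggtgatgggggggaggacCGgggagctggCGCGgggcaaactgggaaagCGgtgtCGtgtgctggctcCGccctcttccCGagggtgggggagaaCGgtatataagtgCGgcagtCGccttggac
Pou5f1: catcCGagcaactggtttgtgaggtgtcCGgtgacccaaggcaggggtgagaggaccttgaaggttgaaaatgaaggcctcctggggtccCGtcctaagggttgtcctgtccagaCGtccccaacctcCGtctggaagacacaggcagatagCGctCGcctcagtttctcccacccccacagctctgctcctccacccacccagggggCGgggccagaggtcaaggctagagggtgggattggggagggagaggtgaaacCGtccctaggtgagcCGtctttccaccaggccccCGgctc
Kit: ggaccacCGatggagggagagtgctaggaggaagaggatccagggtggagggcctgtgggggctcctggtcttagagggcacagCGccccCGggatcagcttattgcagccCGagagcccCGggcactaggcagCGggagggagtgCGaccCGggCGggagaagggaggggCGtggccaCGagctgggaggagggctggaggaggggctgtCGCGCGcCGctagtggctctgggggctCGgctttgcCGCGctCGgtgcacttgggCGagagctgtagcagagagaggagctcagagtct
Boll: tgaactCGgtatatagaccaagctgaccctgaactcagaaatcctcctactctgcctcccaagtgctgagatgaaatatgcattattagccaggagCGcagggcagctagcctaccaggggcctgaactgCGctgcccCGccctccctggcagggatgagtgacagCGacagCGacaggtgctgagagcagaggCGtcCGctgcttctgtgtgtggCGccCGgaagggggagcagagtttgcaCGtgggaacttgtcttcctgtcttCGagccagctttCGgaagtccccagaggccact
Olfr1047: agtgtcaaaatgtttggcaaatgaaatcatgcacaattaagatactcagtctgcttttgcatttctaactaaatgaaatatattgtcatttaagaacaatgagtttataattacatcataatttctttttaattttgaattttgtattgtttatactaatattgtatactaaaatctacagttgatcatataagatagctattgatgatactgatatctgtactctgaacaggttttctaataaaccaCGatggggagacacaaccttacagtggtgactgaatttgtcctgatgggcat
The Eef1a1 window holds 22 CG and that of Kit 20, the window of Boll 13 and that of Pou5f1 11, and the receptor window of Olfr1047 holds 1. Pou5f1, with an observed to expected ratio of 0.37, and Boll, with 0.50, show that the order by level is a tendency over many genes and does not fix a single one. Over the germ cell and pluripotency genes above the reference, 53.8% of 39 windows reached a ratio of 0.6, close to 51.7% of 29 windows for the later germ line genes that were not above, although their levels lie far apart.

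**Figure D3:**
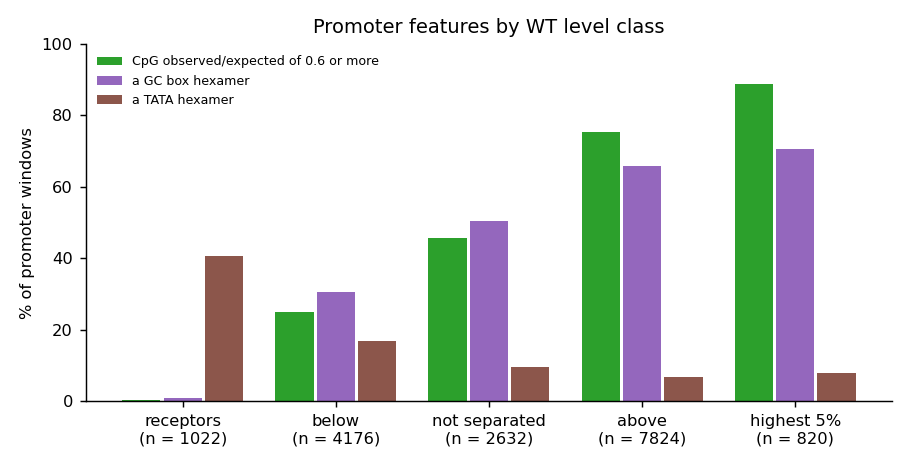
Share of promoter windows, in percent, with a CpG observed over expected ratio of 0.6 or more, with a GC box hexamer (GGGCGG) and with a TATA hexamer (TATAAA), by level class in WT. The first share goes from 25% below the reference through 45.7% not separated and 75.5% above to 88.8% in the highest 5 percent. The TATA share goes from 17% below to 6.79% above and is 8.05% in the highest 5 percent. The receptors, with 0.294% and 40.6%, are the gene family that set the reference and not a class found by level.

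The chromatin genes of methylation reprogramming were above the reference in 28 of 33 cases (84.8%, against 48.9% of all genes). Hdac1, a histone deacetylase, was highest at 10.88 ± 0.12, then Trim28, the corepressor of zinc finger proteins, at 10.58 ± 0.15, and Parp1 at 10.57 ± 0.21. Among the DNA methyltransferases, all picked after their values were seen, maintenance Dnmt1 had 9.86, 9.37, 9.39 and 9.73. The de novo enzyme Dnmt3a was above at 7.16 ± 0.34, and Dnmt3b was not separated at 5.54 ± 0.22. Uhrf1, which brings Dnmt1 to hemimethylated DNA, had 6.98, 5.80, 7.46 and 7.78, with WT 2 apart from the others. Of the Tet oxidases, Tet1 had 8.90, 9.53, 9.50 and 9.26, while Tet2 at 5.58 ± 0.28 and Tet3 at 5.17 ± 0.38 were not separated. The lowest members were Apobec1, a cytidine deaminase, at 4.21 ± 0.12 and Dnmt3l.

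Receptors, adhesion molecules and their effectors were above the reference in 46 of 57 cases (80.7%). Secreted ligands were above in 15 of 25 (60%), nearer to the 48.9% of all genes. By more than 1, 32 of the 57 and only 4 of the 25 ligands were above, against 28.6% of all genes. Behind Kit came the small GTPase Rhoa at 10.19 ± 0.14 and beta-catenin (Ctnnb1) at 9.87 ± 0.11. Cxcr4, the receptor that reads Cxcl12, had 8.37, 9.10, 8.77 and 7.89. Its ligand Cxcl12 was not separated from the reference, with 5.32, 5.53, 5.55 and 5.47. Ror2, the receptor mutated elsewhere in the series, had 7.83, 7.38, 7.81 and 7.76, and its relative Ror1 was below at 4.72 ± 0.32. Cxcl12 and Ror1 were picked after their values were seen.

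Of 23 cadherins 13 were below the reference and 4 (17.4%) above, against 33.6% below and 48.9% above over all genes. E-cadherin (Cdh1), the epithelial one, had 8.88, 9.07, 8.41 and 8.60, and N-cadherin (Cdh2) was below at 4.68 ± 0.17. Itgb1, the beta chain that PGCs need to colonise the gonad, led the integrin subunits at 8.69 ± 0.34. Of the 27 subunits 9 (33.3%) were above, also under the 48.9% of all genes. Gjc1 (connexin 45) led the connexins, with 9.59, 9.03, 9.29 and 9.41. S1pr1, a sphingosine phosphate receptor, was the lowest of the migration list at 4.51 ± 0.40. Among the ligands Pdgfa was highest at 8.31 ± 0.30, then Gdf3 at 8.03 ± 0.85 and Igf2 at 7.28 ± 1.16, and Bmp2 was lowest at 4.55 ± 0.10.

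Division and energy genes were above the reference almost without exception. Of all genes, 48.9% were above, and 28.6% by more than 1. All 32 cell division genes were above by more than 1, with Top2a, the topoisomerase that untangles sister chromatids, at 10.59, 10.56, 10.36 and 10.35 and even the lowest, the separase gene Espl1, at 7.80 ± 0.56. Of 34 replication and G1/S genes 33 were above, led by Pcna, the polymerase clamp, at 11.74 ± 0.10 and Cdk4 at 10.89 ± 0.29. The one left was cyclin D1 (Ccnd1), with 5.29, 5.44, 5.81 and 5.67. Cdkn2a, the Ink4a/Arf locus, at 5.64 ± 0.04, lost its call without WT 1, WT 2 or WT 4 and was below with the 99th percentile of the receptors as reference.

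All 21 genes of the citric acid cycle were above the reference, against 48.9% of all genes, with Mdh2 at 10.74 ± 0.10 the highest. So were all 17 ATP synthase subunits and 34 of 35 subunits of complex I. Glycolysis followed with 17 of 18: Pkm at 11.61 ± 0.13, Aldoa at 11.31 ± 0.17, hexokinase 1 at 11.09 ± 0.08, with Aldoc, an aldolase of brain, not separated at 5.36 ± 0.26. Of 23 chaperone genes 21 were above, with a median of 10.84, led by Hsp90aa1 at 12.32 ± 0.03 and Hspa8 at 12.27 ± 0.05. The stress-inducible Hspa1a was not separated, with 5.35, 5.15, 5.34 and 5.76. Cholesterol synthesis had a median of 6.54 and 16 of 19 genes above, led by Hmgcs1 at 8.40 ± 0.14. Only 6 of the 19 were above by more than 1, near the 28.6% of all genes.

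RNA processing and protein turnover were high as families too, against 48.9% of all genes above the reference. All 17 hnRNP genes and all 23 Sm and Lsm genes, which build spliceosomal particles, were above the reference, led by Hnrnpk at 11.52 ± 0.10 and Snrpd2 at 11.79 ± 0.12, and so were 37 of 40 proteasome genes, led by Psma6 at 11.14 ± 0.13. The 3 others were Psmb8, the immunoproteasome subunit, below at 4.63 ± 0.27, and the thymus subunit Psmb11 at 4.97 ± 0.27 and the testis subunit Psma8 at 5.05 ± 0.57, both not separated. Psma8 was named after its values were seen. In cytochrome oxidase, with 13 of 17 above, Cox6b1 reached 12.34 ± 0.11 while the testis form Cox7b2 was below at 3.85 ± 0.21. All 77 mitochondrial ribosomal protein genes were above, from Mrpl17 at 6.53 ± 0.67 to Mrpl42 at 11.06 ± 0.16. Of 26 replication histone genes 21 were above, with H4c4 at 12.60, 11.80, 11.89 and 12.73; these genes are near copies of each other and their probes may share signal.

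Genes that respond within minutes to handling or growth factors were above the reference in 10 of 16 cases (62.5%, against 48.9% of all genes), and 4 of the 16 were above by more than 1, against 28.6% of all genes. Jund, the AP-1 member least dependent on stimulation, led at 9.19 ± 0.12, then Dusp1, a phosphatase of MAP kinases, at 7.19 ± 0.50 and Ier3 at 6.97 ± 0.81. Atf3 was below at 4.77 ± 0.16. Egr2 was below at 4.95 ± 0.29, a call lost without WT 2 or WT 4.

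Families of developmental regulators had shares above the reference on both sides of the 48.9% of all genes. Among the Sox, forkhead, Frizzled, Wnt and FGF families the shares ran from 36.4% of the FGF genes to 60% of the Frizzled receptors. The T-box factors (33.3%) and Hox genes (16.2%) were lower. These families are given for their members. Of 19 Sox genes 11 were above the reference, Sox2 first and then Sox15 at 8.08 ± 0.42 and Sox13 at 7.84 ± 0.12. Of 43 forkhead genes 25 were above, led by Foxh1, a partner of Smad proteins in Nodal signalling, at 8.53 ± 0.48, with Foxd1 at 4.15 ± 0.04 the lowest. Of 10 Frizzled receptors 6 were above, with Fzd10 at 7.66 ± 0.09 the highest and Fzd4 at 4.12 ± 0.23 the lowest. Of 19 Wnt ligands 8 were above, led by Wnt4 at 6.97 ± 0.34 and Wnt10a at 6.39 ± 0.35, and Wnt5a, the ligand of Ror2, was at 6.32 ± 0.41. Of 22 FGF genes 8 were above, Fgf8 first at 6.58 ± 0.26. The solute carriers, 158 of 364 above, were led by the glucose transporter Slc2a3, with 10.44, 10.68, 10.34 and 10.93.

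**Figure D4:**
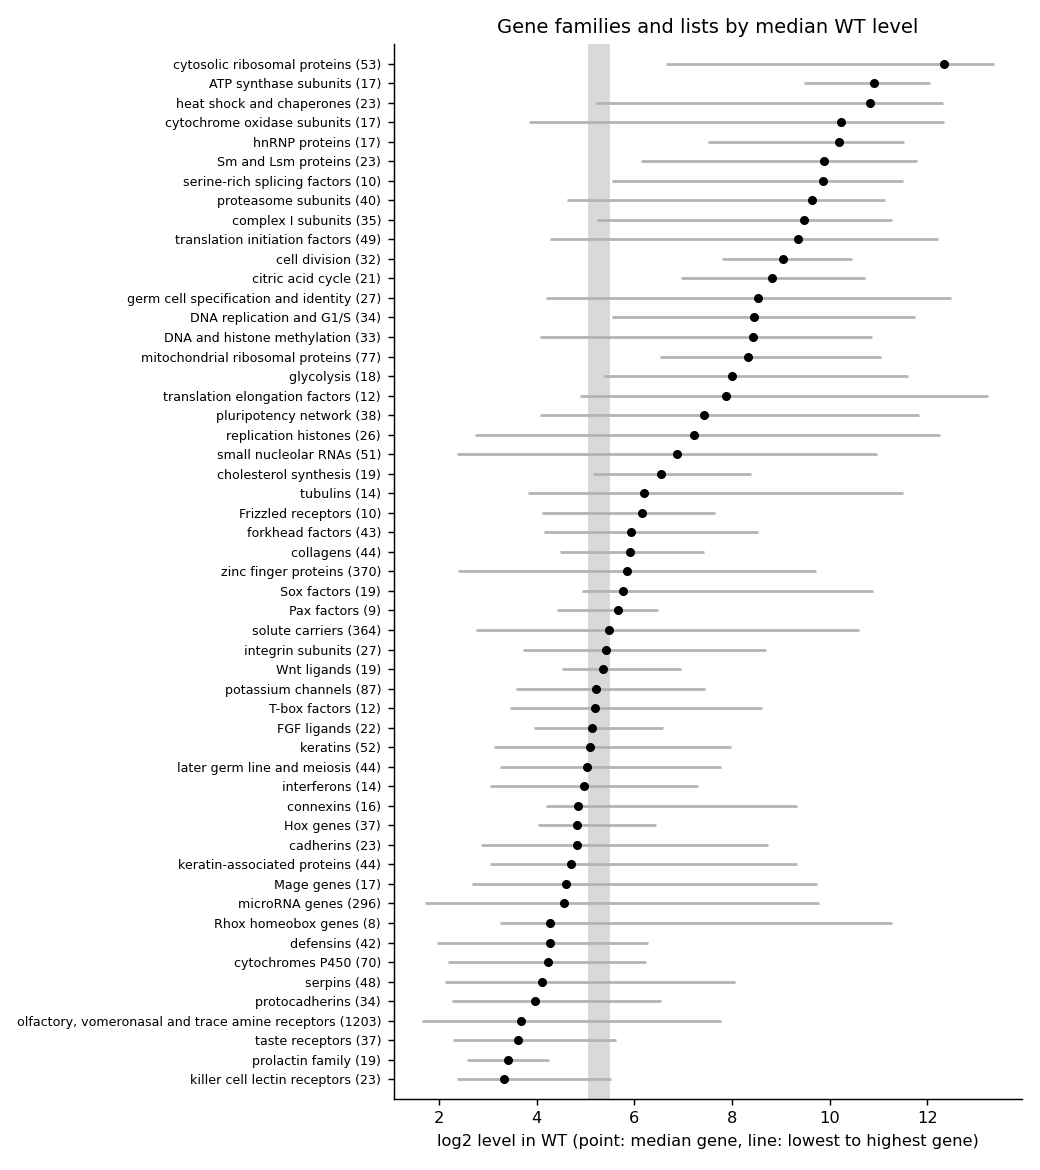
Median log2 level over WT embryos of each gene family or list (point) and the range from its lowest to its highest member (line), ordered by median, with the number of measured genes in brackets and the grey band at the receptor reference, 5.06 to 5.51. Cytosolic ribosomal proteins lead with a median of 12.34, and killer cell lectin receptors are at 3.34.

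At the low end of the signal stood families of other tissues. All 19 prolactin family genes, hormones of the placenta and pituitary, were below the reference, with a highest member of 4.25 ± 0.21 (Prl2a1). So were 22 of 23 killer cell lectin receptors, 58 of 70 cytochromes P450, 40 of 48 serpins, 32 of 37 taste receptors and 27 of 34 protocadherins, against 33.6% of all genes. Among the Hox genes, which set position along the body axis, 22 of 37 were below and 6 above. The highest, Hoxb3, had 6.21, 6.48, 6.64 and 6.44, and the lowest were Hoxa5 at 4.04 ± 0.17 and Hoxc4 at 4.03 ± 0.27. Serpinh1, the collagen chaperone, was an exception among the serpins at 8.06 ± 0.11, and Tbx4, a T-box factor of the allantois and hindlimb, among the T-box genes, with 8.38, 9.21, 8.10 and 8.75.

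The reference has known gaps. Of the 1203 receptors that set it, 27 were themselves above it, led by Olfr1174 at 7.78 ± 0.51, and Krtap5-3, a hair keratin partner, was at 9.33 ± 0.38. Sry, the testis-determining gene of the Y chromosome, had 6.30, 6.66, 6.95 and 6.83 and was called above. Its highest value was in WT 3, in which the Y-linked Eif2s3y had 3.17 against 8.74, 8.56 and 7.86 in the others. Xist, the RNA that coats the inactive X, had 3.87, 3.92, 7.07 and 3.50. A call above the reference is thus a statement about a probe's signal.

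Of the markers of other cells the sort could hold, the share above the reference ran from 20% (macrophage) to 56.2% (hindgut endoderm), against 48.9% of all genes. Some of these calls were lost when 1 embryo was left out, among them those of Slc4a1, Tal1, Eng, Gata6, Foxa2, Wt1, Col3a1 and Trp63. For primitive red cells, 4 of 10 markers were above the reference, 0 of them by more than 1. The highest was Alas2 at 6.11 ± 0.34, and the embryonic globin Hbb-bh1 had 3.13, 2.90, 3.78 and 3.62. The mean over the 10 was 4.86, 5.11, 5.55 and 5.26, highest in WT 3. For macrophages, 3 of 15 were above, led by Cd68 at 6.35 ± 0.48, while Ptprc (CD45) was below with 3.93, 4.30, 4.83 and 4.46. Their mean was 4.67, 4.64, 5.05 and 4.86, also highest in WT 3. Most sets of low level were highest in that embryo, the receptor genes among them (mean of 3.58, 3.74, 3.84 and 3.76).

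Of 16 endothelial markers, 6 were above. Pecam1, an adhesion molecule that pluripotent cells and PGCs are known to share with vessels, had 9.33, 8.35, 8.12 and 8.20, whereas Kdr was below at 4.45 ± 0.21, Tek at 4.27 ± 0.10, and Cdh5 was not separated at 5.42 ± 0.13. Somite and trunk mesenchyme markers were above in 9 of 21 cases, led by Tcf15 at 7.14 ± 0.18, neural tube and tailbud markers in 7 of 16, led by Hes5 at 6.99 ± 0.23, and neural crest markers in 3 of 6, led by Ngfr at 6.52 ± 0.10. In the urogenital mesoderm list 5 of 13 were above and the highest, Sall1 at 7.66 ± 0.32, is in the germ cell list too. In the surface ectoderm list 5 of 11 were above, led by the cadherin Cdh3 at 8.06 ± 0.39 and Grhl3 at 7.74 ± 0.18.

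Of 16 hindgut endoderm markers 9 were above (56.2%, against 48.9% of all genes) and 5 by more than 1, near the 28.6% of all genes. Their mean was 5.69, 5.95, 6.03 and 6.20, highest in WT 4. In mutants 1 to 4 it was 5.837, 5.774, 5.862 and 6.223, highest in mutant 4. Cdx2, a posterior homeobox gene, had 8.24, 7.99, 8.30 and 7.87. Trh, the precursor of thyrotropin-releasing hormone, had 7.89, 8.77, 6.88 and 8.12, and Pyy, an enteroendocrine peptide, was at 6.66 ± 0.12. Keratin 18 had 7.37, 7.43, 7.70 and 9.47, and its partner keratin 8 6.62, 6.83, 6.50 and 7.87, both highest in WT 4. The endoderm factors Foxa1, with 4.82, 5.58, 5.42 and 5.38, and Sox17, at 5.17 ± 0.19, were not separated, and Foxa3 was below at 4.58 ± 0.08. Foxa2 and Gata6 were called above. Foxa2 lost the call whichever embryo was left out, and Gata6 without WT 1, WT 3 or WT 4. How far other cells in the sort add to these levels was not tested.

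Variation between the 4 embryos was described for the genes above the reference. Of the 9753 genes above the reference, 1329 (13.6%) had an SD over 0.5 and 57 (0.584%) an SD over 1. The call uses the same 4 embryos, so a large SD itself keeps a gene from being called, and these shares and the list of most variable genes leave such genes out. Of 108 genes with a WT mean over the reference and an SD over 1, 51 were not called above, among them the Y-linked Eif2s3y at 7.08 ± 2.63. For genes with an SD over 0.5, the embryo farthest from the others was WT 3 in 439 cases and WT 4 in 418. It was WT 1 in 271 and WT 2 in 201. WT 3 was farthest by being lower in 369 cases and WT 4 in 278. The same held for 32 cases of WT 1 and 71 of WT 2. Among genes above the reference and of more than median level, the 8 steadiest included Sub1, a transcription coactivator, at 10.84, 10.85, 10.85 and 10.83, Cadm1, an adhesion molecule, at 7.13 ± 0.02, and catalase (Cat) at 6.01 ± 0.02.

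WT 4, the youngest by somites, was farthest from the others in 21 of the 57 genes with an SD over 1, higher in 9 and lower in 12. In some of the most variable genes WT 4 was alone at the top. The imprinted gene Mest had log2 levels of 6.58, 6.50, 6.54 and 9.93, with the first 3 embryos close together, while the 4 mutant embryos ran from 6.05 to 6.98. Igfbp2, which binds insulin-like growth factors, had 7.18, 7.57, 7.46 and 10.26. Igf2 had 6.30, 6.53, 7.42 and 8.86, and Dlk1, another imprinted growth regulator that was picked after its values were seen, 6.51, 6.81, 7.19 and 8.73. In mutants 1 to 4, Igf2 had 6.573, 6.679, 5.973 and 8.235, highest in mutant 4, at 21 to 22 somites. Igfbp2 had 7.396, 8.719, 8.242 and 8.445 there, highest in mutant 2. Keratins 18 and 8 were highest in WT 4, as given above. Of the 26 imprinted genes measured, 17 (65.4%) were above the reference, against 48.9% of all genes. Of these 26, 15 had their highest value in WT 4, 5 in WT 3, 4 in WT 1 and 2 in WT 2. Which embryo was highest was not counted over all genes, so this tally is a description only. The mean over the list was 6.40, 6.34, 6.50 and 6.92, and in mutants 1 to 4 it was 6.487, 6.353, 6.48 and 6.796. Peg10 had 8.73, 8.42, 9.05 and 9.64, whereas Peg3, the highest of the list, was at 10.86, 10.52, 10.67 and 10.98, and Phlda2 had 10.30, 8.90, 9.77 and 10.34.

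In other genes of large spread both 25-somite embryos were above the 22- and 21-somite ones. Of the 57 genes with an SD over 1, 22 had this order and 4 the opposite one. Of all 9753 genes above the reference, 2301 had this order and 1859 the opposite one. This order was the more frequent in both sets, and by a wider proportion in the 57. Both orders together made 45.6% of the 57 and 42.7% of the 9753, shares that do not tell the directions apart. Tcl1 is given above. Commd6, a regulator of NF-kappaB, had 8.65, 8.22, 6.37 and 5.59, Gdap10 8.10, 8.26, 6.32 and 5.76, and the small nucleolar RNA Snord33 8.82, 8.36, 6.63 and 5.29. These genes were picked for their spread, and the order is a description only. Others had another order: Dennd5b had 7.68, 7.67, 4.88 and 9.28, Zfp330 7.48, 8.25, 7.98 and 4.48, Ubxn2a 7.12, 7.24, 9.74 and 5.90, and Tmem243 6.93, 6.99, 9.94 and 6.49. Of the 20 most variable genes, 8 were above the reference whichever embryo was left out and 12 lost the call without at least 1, among them Commd6, Gdap10, Snord33, Dennd5b and Zfp330.

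The mutant embryos, whose values did not choose these genes, also varied more in them. Of the 200 most variable WT genes above the reference, 38 (19%) were among the 200 most variable in the mutant embryos, where 200 genes are 2.05% of those above. The median mutant SD of the 200 was 0.454, against 0.233 over all genes above, and 169 of the 200 exceeded that median.

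**Figure D5:**
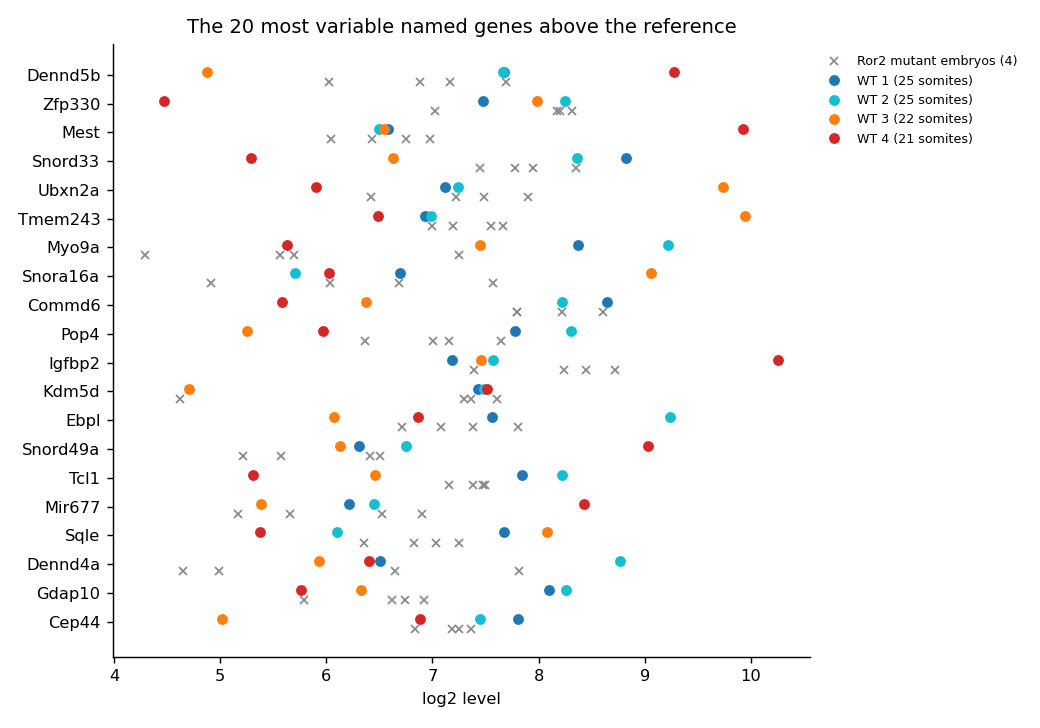
Log2 level of the 20 most variable genes above the reference in each of the 4 WT embryos (coloured points) and each of the 4 Ror2 mutant embryos (grey crosses). Mest and Igfbp2 have WT 4 far to the right of the other 3, and Commd6, Gdap10 and Tcl1 have both 25-somite embryos on the right.

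Small nucleolar RNAs had the largest spread of the families. Of 51 small nucleolar RNAs, guides of ribosomal RNA modification, 33 (64.7%) were above the reference, against 48.9% of all genes. The median SD of the 51 was 0.826 in WT and 0.847 in mutant embryos, against 0.245 and 0.209 over all genes. An SD over 0.5 was found in 44 of the 51. Snord14e had 11.13, 11.73, 11.77 and 9.29, and Snora3 10.37, 10.33, 10.10 and 9.12, both lowest in WT 4.

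Of 296 microRNA genes, 69 (23.3%) were above the reference, fewer than the 48.9% of all genes, and 170 were below. Such a probe reads the gene or its precursor, so the 2 arms cannot be told apart and a mature level is not measured. Mir598 was highest at 9.78 ± 0.36. Among the 62 genes above the reference with a mature sequence in RefSeq (GRCm38.p6), 2 seeds were shared by 3 or more genes, that of the miR-17 family and that of the miR-181 family. They are shown with the seed (bases 2 to 8) in capitals, beside the seed of miR-25 and miR-92b, since Mir25 is a close neighbour of Mir93.
mmu-miR-17-5p: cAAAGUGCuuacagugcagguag
mmu-miR-20a-5p: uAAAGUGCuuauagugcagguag
mmu-miR-93-5p: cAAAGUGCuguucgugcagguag
mmu-miR-181a-5p: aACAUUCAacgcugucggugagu
mmu-miR-181b-5p: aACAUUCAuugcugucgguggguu
mmu-miR-181c-5p: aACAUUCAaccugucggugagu
mmu-miR-181d-5p: aACAUUCAuuguugucggugggu
mmu-miR-25-3p: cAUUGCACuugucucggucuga
mmu-miR-92b-3p: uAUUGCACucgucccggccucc
Mir20a, of the first seed group, had 7.78, 8.29, 7.40 and 8.76, Mir17 6.72, 6.93, 6.05 and 8.01, and Mir93 5.67, 6.54, 6.03 and 7.10. All 3 were highest in WT 4, and so was Mir25, with 6.97, 7.33, 6.84 and 8.35, while Mir92b had 6.78, 6.97, 7.57 and 7.07. Mir17 and Mir20a lie within 1 cluster on chromosome 14, and Mir93 and Mir25 within 1 on chromosome 5, so members of a pair are not separate measures of a locus. The miR-181 genes went another way, with Mir181b-2 at 9.15, 9.30, 10.33 and 8.42 and Mir181a-2 at 7.57, 8.07, 9.32 and 7.19, both highest in WT 3. Mir181c and Mir181d were also highest there, at 6.85 and 7.19. Mir181a-2 and Mir181b-2 are close neighbours on chromosome 2, and Mir181c and Mir181d on chromosome 8, so these 4 genes are 2 loci.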

How the data were processed

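PGCs of 4 WT and 4 Ror2 mutant embryos were each hybridised to 1 array, and groups, replicate numbers and somites were taken from the labels. Per the labels' protocols, cells were sorted straight into lysis buffer, and their RNA was purified with a micro kit, amplified with the NuGEN Ovation FFPE WTA and Encore kits, and labelled with biotin. The deposited table holds 1 log2 value per probe and array, a scale taken from the range of the values. How the authors corrected background, normalized and summarised probes is not given in these sources, and the deposited log2 values were used unchanged. The separate embryos are the replicates, and their number limits the precision.

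Of 35557 probes, 21789 had 1 gene symbol, 1621 several and 12147 none. The 19938 genes were each given by the probe of highest WT mean; 999 had several probes, and 182 had probes over 2 apart on the log2 scale. Value minus reference was fitted with an intercept over the 4 WT arrays in limma 3.58.1 (R 4.3.3, eBayes, prior degrees of freedom 3.25), with Benjamini-Hochberg adjustment. Percentiles, promoter and spread values were computed in Python 3.11.15 with pandas 2.3.3 and numpy 2.4.6. In 20 simulations on the real gene means with 200 genes placed at known distances, 87.6% of genes 0.5 above the reference, 99.2% of those 1 above and 1.9% of those at it were called above.

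Named genes are the 20 of highest mean, the 20 of largest SD among genes above the reference, the 8 of smallest SD among those that also exceed the median gene, up to 3 highest and 2 lowest members of each list, all markers and a few set genes; others are stated as picked later. The members and lists were chosen with earlier results of these data known. The patterns of some families (integrins, histones, interferons, channels, tubulins, cadherins, Frizzled, forkhead and microRNA host genes) were corrected after the values were seen. Alternatives changed the normalization, reference, probe rule, filter and replicates, and the treat test was added after seeing the data. The first RefSeq promoter listed per gene was used. Ratio of observed to expected CG is the CG count times the length over the product of the C and G counts.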

Additional observations from a re-analysis of the deposited data

Results flagged for a closer look

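In 54 named genes and 68 list means, the lowest or highest of the 4 WT embryos was checked for its gap to the nearest other, as a share of the range, against Dixon's 95% value for 4 samples. Chance alone passes about 5% of groups, and 5.54% of all genes and 5.58% of genes above the reference exceeded the value, so single cases carry little weight. Mest (0.976) and Igfbp2 (0.873) exceeded it through WT 4 at the top, and Tmem243 (0.855) through WT 3 at the top. Ror2 (0.841) did so through WT 2, whose log2 level of 7.38 lay below 7.76 to 7.83 in the other embryos. The sex-linked genes exceeded it through WT 3: Kdm5d (0.968, with 4.71 against 7.43 to 7.52 in the other embryos), the mean of the Y-linked genes (0.947), and Xist (0.88), which is also the only measured gene of the X inactivation list (0.88). WT 3 was thus low in the Y-linked genes and high in Xist, signals that differ between XX and XY embryos. Embryo sex was not among the items taken from the labels and was not tested. The mean of the serpins (0.911) did so through WT 1, at 3.96 against 4.16 to 4.18.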

How the results depend on the processing

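The counts depend mostly on where the low-signal line is put. Of the genes above the reference, 9753 became 17397 with the median of the receptors as reference, 6595 with their 99th percentile and 5701 where more than 1 above was asked. Of the genes below, 6706 became 1267, 10246 and 2697 under the same settings, and 1619 when the lowest 25% of genes were left out first, which removes genes that were below. Of 568 list and named genes, 19 went to the opposite class with the 99th percentile and 75 with the receptor median. Members of all lists and families above the reference went from 1329 to 2314 with the receptor median and to 835 where more than 1 above was asked. Quantile normalization, median centring, the mean of a gene's probes and the fit on all 8 arrays kept 99.1% or more of the genes called above. Leaving out 1 WT embryo gave 9216 to 9532 genes above and 6115 to 6724 below, and moved 27 to 51 of the 568 to another class. Of the 20 most variable genes, 7 to 11 stayed in that list without 1 embryo, so the ranking by spread rests on single embryos; of the 20 highest, 19 to 20 stayed, and 17 with the mean of probes. No paired analysis was possible because no groups were compared: each test asks about the WT mean, and only the fit on all 8 arrays drew on mutant embryos, for its spread. With no scanner background used, low signals limit the calls near the reference.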

Other observations

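The 12147 probes without a gene name in the annotation used hold signal too: 4036 were above the reference on all 4 WT arrays, 94 had a WT mean over 12 on the log2 scale, and the highest, at 13.72, exceeded every named gene. Their median was 5.06. What they detect was not analysed here.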
